A study of Mus musculus with 2 samples.

Results

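The genes described here are the interferon response and innate sensor genes of the table: every gene whose symbol belongs to the Ifit, Ifi, Oas, Irf, Gbp, Isg, Tlr, Nlrp or Nod series, together with Ifih1, Ddx58, Rsad2, Nlrx1 and Aim2. The rule also names Mx1 and Mx2, and neither is among the genes analysed here. The rule goes by symbol, and it was drawn up with earlier results of these data known. It gave 85 of the 17134 genes in the table, and all 85 had a read in at least 1 library. It therefore also holds Irf2bp1, Irf2bp2 and Irf2bpl, which encode partners of an interferon regulatory factor and not members of that family.

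RNA was sequenced from tuft cells of the small intestine of untreated mice, sorted as cells positive for EpCAM and Siglec-F. Tuft cells are a scarce epithelial cell type that senses luminal chemicals. There were 2 libraries: 1 from mice labelled Spib+ that carried Villin-cre (WT) and 1 from Spib fl/fl mice with that same Cre (Spib_KO). Both groups carried Villin-cre, whose promoter is active in the intestinal epithelium. Spib encodes an ETS family transcription factor. The labels give no age, sex or number of mice, and there is 1 library per genotype, so each difference below compares these 2 libraries and no test between genotypes was possible. The libraries held 17925421 and 17228665 reads. The Spib count fell from 6266 to 48 reads, which checks the labels. The sort markers Epcam and Siglecf had log2 ratios of -0.06 and 0.14, and all 10 tuft cell markers on a fixed list were present and differed by less than 1.5-fold.

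Interferons are cytokines that warn cells of infection. Type I and type III interferons act through receptor kinases on STAT proteins and IRF9, which together bind a promoter sequence called the interferon-stimulated response element (ISRE). The genes they induce include Ifit, Oas, Gbp and Isg genes, which encode proteins that bind foreign RNA, degrade it or attack vacuoles that hold pathogens. Innate sensors act upstream: Toll-like receptors and the helicases RIG-I and MDA5 detect microbial nucleic acids or surface molecules, and NLR proteins such as NLRP6 survey the cytosol. IRF proteins carry signals between the 2 layers, and Spi-B is known to bind DNA next to IRF4 or IRF8 in B cells.

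Most of the members with enough reads to compare differed little between the libraries. Reads of all 85 members made up 0.395% of the WT library and 0.396% of the Spib_KO library. Levels are given as normalised read counts, in CPM, the read count as a share of the scaled library size. A gene was taken as measured if either library gave it at least 5 CPM with at least 30 reads, which held for 42 of the 85 genes. A gene was called higher or lower in Spib_KO when the 95% counting interval of its log2 ratio (Spib_KO over WT) lay wholly beyond a 2-fold difference. By this rule Ifit1 and Tlr1 were higher and Irf5 and Isg20 were lower. Over all 10707 measured genes, 2.33% were called higher and 2.18% lower, against 2 of 42 members in each direction, which is 4.76%. The median log2 ratio of the 42 was 0.11, with quartiles of -0.26 and 0.32, and that of all measured genes was 0.01, with quartiles of -0.26 and 0.28. Of the 42, 33 (78.6%) differed by less than 1.5-fold, against 79.5% of all measured genes. In sorted bulk RNA, fewer cells of a type and less RNA per cell cannot be told apart.

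**Figure D1:**
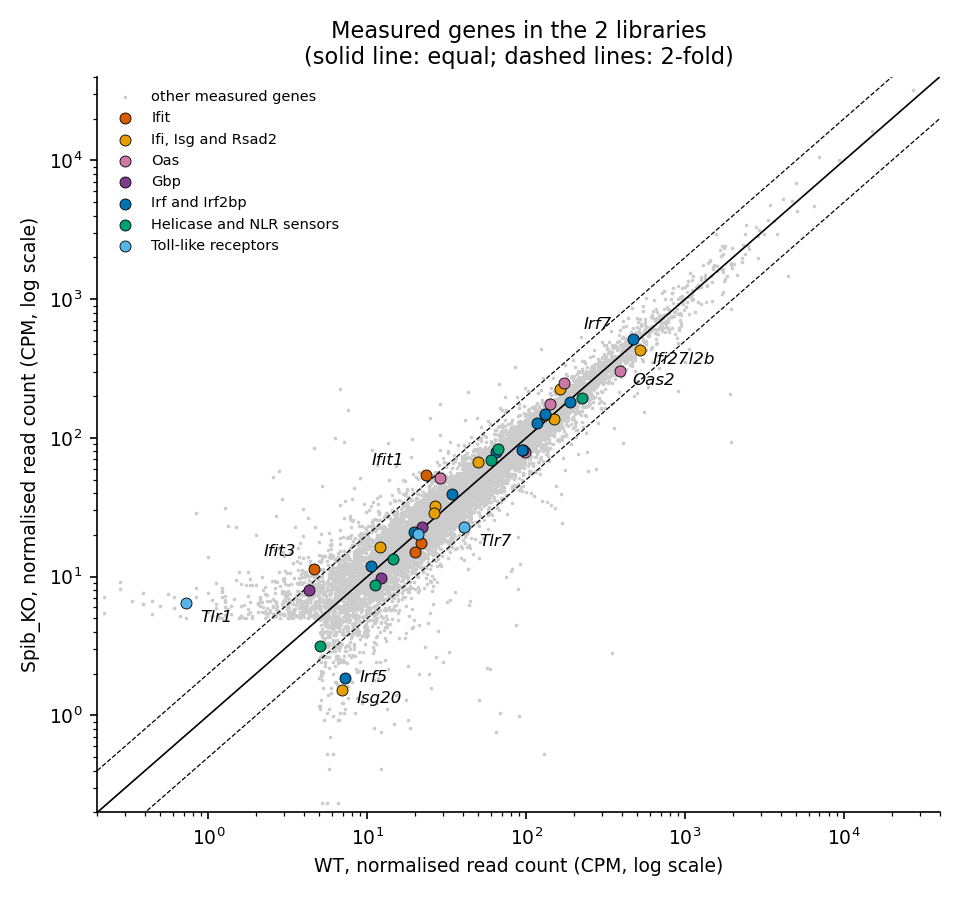
Normalised read count (CPM) in WT (x axis) and Spib_KO (y axis), both on log scales, for measured genes. Coloured points are 41 of the 42 members and grey points the other genes, and genes at 0 in a library are not drawn. Most coloured points lie near the solid line of equality, while Ifit1, Ifit3 and Tlr1 lie above the upper dashed line and Irf5 and Isg20 below the lower one, where dashed lines mark a 2-fold difference.

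With the bound of the interval set at 1.5-fold, Ifit3 and Oas3 joined Ifit1 and Tlr1 as higher and Tlr7 joined Irf5 and Isg20 as lower. That is 4 and 3 of 42 members, where the rule called 5.59% of all measured genes higher and 5.52% lower. All intervals cover counting error only, because there is 1 library per genotype. The reads also came from amplified cDNA with no molecular identifiers described, so they are not independent molecules. By counting error alone, 19 of the 42 members had an interval wholly above 0 and 16 wholly below 0. The same count was not made over all measured genes, so it cannot be read as particular to the members.

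**Figure D2:**
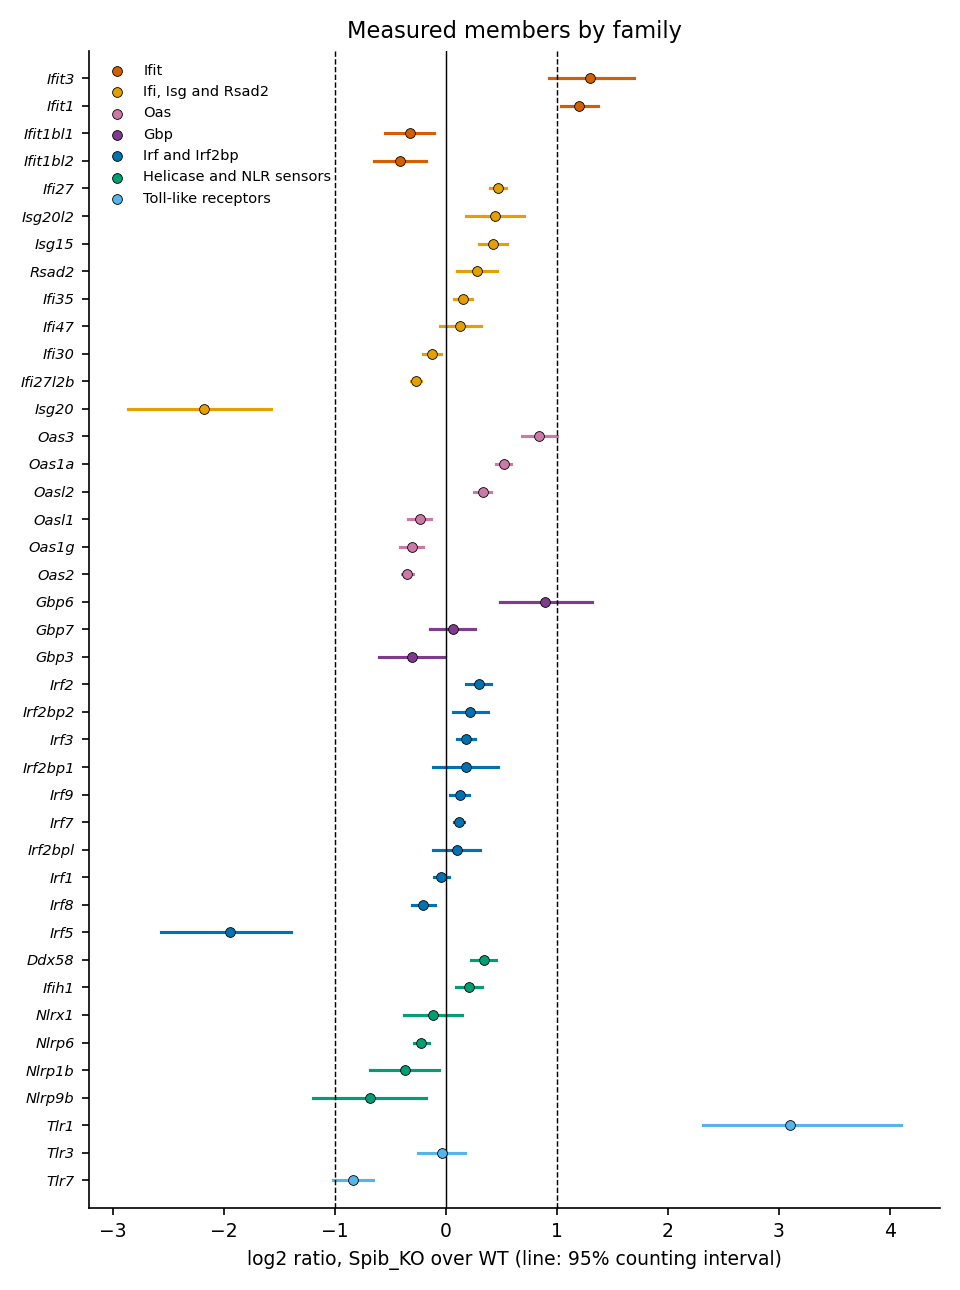
Log2 ratio of Spib_KO over WT for 41 of the 42 measured members, grouped and coloured by family. Points are the ratios, lines their 95% counting intervals and dashed lines a 2-fold difference. The intervals of Ifit1 and Tlr1 lie wholly to the right of the right dashed line and those of Irf5 and Isg20 wholly to the left of the left one.

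Interferon regulatory factors had close levels in both libraries, with the exception of Irf5. All 8 Irf genes with a row were measured, and 7 of them differed by less than 1.5-fold. Irf7, the factor that amplifies type I interferon production, had 473 CPM in WT against 514 in Spib_KO, with a log2 ratio of 0.12. Irf1, a factor induced by interferon-gamma, had 187 and 182 CPM, with a ratio of -0.04. Irf3, which is activated downstream of RNA and DNA sensors, had 131 and 148 CPM, with a ratio of 0.18. Irf9, the DNA-binding partner of STAT2, had 117 and 128 CPM, with a ratio of 0.12. Irf2, which competes with Irf1 for its sites, had 64.6 and 79.2 CPM, with a ratio of 0.30. None of these 5 genes was called.

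Irf8, a factor of myeloid and B cells that can pair with Spi-B, had 1690 WT reads against 1400 in Spib_KO, or 93.9 and 81.6 CPM. Its log2 ratio was -0.20 (95% interval -0.31 to -0.10), so the transcript of this partner was near its WT level in the library that had almost lost Spib. Irf5, which acts downstream of Toll-like receptors and MyD88, was the exception of the family. It fell from 131 to 32 reads, or from 7.28 CPM (95% Poisson interval 6.09 to 8.64) to 1.86 CPM (1.28 to 2.63). The log2 ratio was -1.95 (-2.57 to -1.40), a 3.86-fold difference. From deposited TPM and FPKM it was -1.35 and -1.26, and there, as with a CPM minimum of 20, Irf5 was under the level filter and not called. Irf5 (gene 27056, chromosome 6, 29526130 to 29541869, GRCm38.p6) overlaps the end of Tnpo3, whose log2 ratio was -0.06. No strand-specific step is described, and reads without strand do not separate such a pair where they overlap. Summed over the 8 genes, Irf transcripts had 1257 CPM in WT against 1292 in Spib_KO, with a log2 ratio of 0.04. The 3 Irf2bp genes had ratios between 0.10 and 0.22.

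Genes of the Ifit family, whose proteins bind viral RNA and block its translation, had ratios of either sign within a single locus on chromosome 19. Ifit1 (gene 15957, 34640889 to 34650009) rose from 421 to 925 reads, or from 23.4 CPM (21.2 to 25.7) to 53.9 CPM (50.5 to 57.5). The log2 ratio was 1.20 (1.04 to 1.37), a 2.30-fold difference. Ifit3, which stabilises Ifit1 in a complex, had 83 WT reads against 196 in Spib_KO, or 4.61 and 11.4 CPM, with a log2 ratio of 1.30 (0.93 to 1.70), whose lower bound missed the 2-fold rule. The neighbours Ifit1bl1 and Ifit1bl2, which are close copies of Ifit1, had ratios of -0.32 (-0.55 to -0.10) and -0.41 (-0.65 to -0.18). Ifit2 and Ifit3b were below the level filter, with 52 and 65 reads and with 17 and 31 reads.

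The gene model of Ifit1bl1 spans Ifit1, Ifit1bl2 and Ifit3b, and the deposited counts of 5 Ifit genes are not whole numbers, so reads were shared out among them. Summed over Ifit1, Ifit1bl1 and Ifit1bl2, which removes the sharing among these 3, the level was 65.3 CPM in WT against 86.5 in Spib_KO, with a log2 ratio of 0.40 (0.29 to 0.52). Summed over all 6 Ifit genes it was 73.8 and 103 CPM, with a ratio of 0.49. Both sums lie above 0 and below the ratio of Ifit1 alone.

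The promoter of Ifit1 is shown because the pair of ISRE cores in it also serves as the upstream sequence of its neighbour. RefSeq promoter windows of build GRCm38.p6, from 250 bases before to 50 bases after a start site, were found for 68 of the 85 members. They were searched on both strands for the ISRE core, GAAA followed by any 2 bases and GAAA, which reads TTTC, any 2 bases and TTTC on the other strand. The 250 bases before the Ifit1 start, at chr19:34640639-34640888 on the plus strand, are printed 5′ to 3′ with both matches in capitals.
Ifit1: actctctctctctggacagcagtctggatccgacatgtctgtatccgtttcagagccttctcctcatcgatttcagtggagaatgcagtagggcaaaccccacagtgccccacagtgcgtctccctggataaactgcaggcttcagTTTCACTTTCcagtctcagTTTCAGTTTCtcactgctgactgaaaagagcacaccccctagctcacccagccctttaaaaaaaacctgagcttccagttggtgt

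The matches began 104 and 85 bases before the Ifit1 start. Ifit1bl2 is transcribed away from Ifit1, and its own window holds the same pair of matches on the opposite strand, 51 and 70 bases before its start. The stretch around each is printed with 10 bases on either side and the core in capitals, first for Ifit1 and then for Ifit1bl2 at the same coordinates (chr19:34640775-34640804).
Ifit1: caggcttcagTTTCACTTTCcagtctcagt
Ifit1bl2: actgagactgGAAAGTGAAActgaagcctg

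These genes with a common ISRE pair had log2 ratios of 1.20 and -0.41. The ISRE matches of Ifit3, at chr19:34583363-34583392 and chr19:34583397-34583426, and of its copy Ifit3b had identical letters, printed here once for each match.
Ifit3 first match: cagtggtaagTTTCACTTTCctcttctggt
Ifit3 second match: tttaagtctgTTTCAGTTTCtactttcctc

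Of the 68 members with a window, 24 (35.3%) held an ISRE core, against 3.74% of the 13622 genes of the table with a window. The members were chosen by interferon and sensor gene names, so these shares are no test. The 24 also count neighbours with a common pair (Ifit1 and Ifit1bl2) and copies with identical letters (Ifit3 and Ifit3b). Among measured members, the 14 with a core had a median log2 ratio of 0.29, with 10 above 0, and the 22 without had a median of 0.03, with 11 above 0. Among all measured genes, the 319 with a core had a median of -0.01, and those without had 0.01. A match describes letters in a window, and says nothing of binding. The ETS and IRF composite core, GGAA followed by any 2 bases and GAAA, the kind of sequence at which Spi-B and IRF4 or IRF8 bind together, was in 2.86% of all windows and in 2 member windows (2.94%), those of Ifi44 and Irf2. In the Irf2 window, 247 bases before the start, this match overlaps an ISRE match. The Ifi44 match lies at chr3:151749939-151749968 and is printed as the match nearer to a start.
Ifi44: gagtttcagtTTTCGTTTCCcgagcaggat

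**Figure D3:**
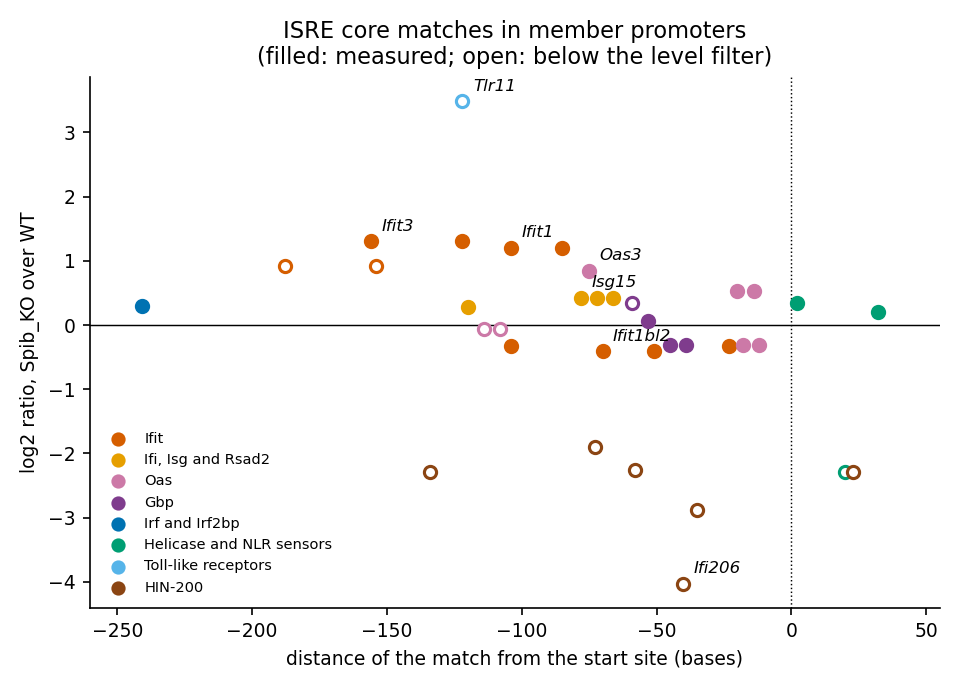
Log2 ratio of Spib_KO over WT (y axis) against the distance of each ISRE core match from the start site of its gene in bases (x axis, negative before the start), for the 24 members with a match. Filled points are measured genes and open points genes below the level filter, and a gene with several matches has several points. Filled points lie between -0.41 and 1.30, the open points of the HIN-200 family lie at -1.90 or lower, and the highest open point is Tlr11, with 0 and 5 reads.

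Isg15, Rsad2 and the 5 measured Ifi genes all differed by less than 1.5-fold. Isg15, a ubiquitin-like modifier, had 893 and 1143 reads, or 49.6 and 66.6 CPM, with a log2 ratio of 0.42 (0.30 to 0.55). Its window holds 3 overlapping ISRE cores, the first of which is printed from chr4:156200877-156200906, minus strand.
Isg15: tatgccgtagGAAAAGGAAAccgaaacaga

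Rsad2, which encodes the antiviral enzyme viperin, had 26.6 CPM in WT against 32.3 in Spib_KO, with a ratio of 0.28 (0.10 to 0.46). Ifi27, a small protein of mitochondria, had 163 and 226 CPM, with a ratio of 0.47 (0.40 to 0.54). Ifi27l2b, a relative of Ifi27, had the highest level of all members per transcript length, with 833 TPM (a per-length share of transcripts) in WT against 682 in Spib_KO. Its log2 ratio from counts was -0.27 (-0.31 to -0.22). Ifi30, a thiol reductase of lysosomes, had a ratio of -0.13, Ifi35 0.16 and the GTPase gene Ifi47 0.13. Isg20l2, which shares part of its name with Isg20, had a ratio of 0.44 and touches Rrnad1, whose ratio was 0.31.

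Isg20, an interferon-induced exonuclease for single-stranded RNA, fell from 125 to 26 reads. That is 6.95 CPM (5.78 to 8.28) in WT and 1.52 CPM (0.99 to 2.22) in Spib_KO, with a log2 ratio of -2.18 (-2.87 to -1.58) and a 4.52-fold difference. It lies on chromosome 7 (gene 57444, 78913396 to 78920396) and overlaps no other gene of the table. With a CPM minimum of 20 Isg20 was under the level filter. Ifi27l2a was below the level filter and had 80 WT reads against 12 in Spib_KO, with a log2 ratio of -2.62 (-3.68 to -1.78). Its gene model spans Ifi27, whose ratio was 0.47, so the reads of both genes come from 1 stretch of chromosome 12. Isg20 and Ifi27l2a thus had more reads in WT while Isg15, Ifi27 and Rsad2 had ratios of 0.28 to 0.47.

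The Oas family, named for enzymes that make the second messenger of RNase L, was among the more abundant groups. Its sum was 928 CPM in WT against 946 in Spib_KO, with a log2 ratio of 0.03 (-0.002 to 0.06). None of the 6 measured genes was called, and 3 had ratios above 0 and 3 below. Oas3, which senses long double-stranded RNA, had 518 and 887 reads, or 28.8 and 51.7 CPM, with a ratio of 0.84 (0.69 to 1.004). Oas1a had 172 and 247 CPM, with a ratio of 0.52 (0.46 to 0.59), and its near copy Oas1g had 98.4 and 79.4 CPM, with a ratio of -0.31 (-0.41 to -0.21). The deposited counts of Oas1a, Oas1g and Oas3 are not whole numbers, so reads were shared out and their ratios depend on that split. Summed over the 6 Oas1 genes, which removes the sharing among these 6, the ratio was 0.27 (0.22 to 0.33). Oas2 had 389 and 306 CPM, with a ratio of -0.35 (-0.40 to -0.30).

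The OAS-like genes were split as well. Oasl1 had 96.0 and 81.6 CPM, with a ratio of -0.23, and Oasl2 had 140 and 177 CPM, with a ratio of 0.33. Oas1e had 0 WT reads against 19 in Spib_KO, at least 6.64-fold higher against a floor of 3 reads, and was below the level filter. The windows of Oas1a and Oas3, like that of Oas1g, hold an ISRE core, printed for Oas3 from chr5:120777715-120777744, minus strand.
Oas3: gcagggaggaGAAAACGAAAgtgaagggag

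Guanylate-binding proteins are GTPases that coat pathogen vacuoles, and their genes lie in a cluster on chromosome 3 and a cluster on chromosome 5. The chromosome 3 genes were close. Gbp7 had 396 and 394 reads, with a log2 ratio of 0.06, Gbp3 had 219 and 169 reads, with a ratio of -0.30, and Gbp2 had 33 and 40 reads, below the level filter. The chromosome 5 genes, between 105012513 and 105295871, had larger ratios of either sign. Gbp8 had 84 WT reads against 0 in Spib_KO, at least 26.7-fold lower. Gbp4 had 70 and 6 reads, with a log2 ratio of -3.37 (-4.97 to -2.28), Gbp10 had 33 and 9 reads, with a ratio of -1.75 (-3.05 to -0.71), and Gbp9 had 76 and 37 reads, with a ratio of -0.96 (-1.58 to -0.38). Gbp6 was the only measured gene of this cluster, with 77 and 137 reads and a ratio of 0.90 (0.49 to 1.32). The deposited counts of Gbp6 (77.11 and 137.18) and Gbp10 (32.89 and 8.82) are not whole numbers, so reads were shared out. The opposite ratios of Gbp6 and Gbp10 depend on that split, which their counting intervals do not cover. The 4 genes with more reads in WT were all below 5 CPM there. Over all 8 Gbp genes the sum was 54.9 and 46.2 CPM, with a ratio of -0.25 (-0.39 to -0.11).

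Toll-like receptor genes were of low abundance apart from Tlr7 and Tlr3. Only 3 of 10 were measured. Tlr1, which pairs with Tlr2 to detect bacterial lipopeptides, rose from 13 to 110 reads, or from 0.72 CPM (0.38 to 1.24) to 6.41 CPM (5.27 to 7.73). The log2 ratio was 3.10 (2.32 to 4.10), an 8.57-fold difference. From deposited TPM and FPKM it was 1.58 and 1.42, and there, as with a CPM minimum of 20, Tlr1 was under the level filter and not called. Tlr1 (gene 21897, chromosome 5, 64924680 to 64933600) overlaps no other gene of the table. Tlr2, its partner, had 22 WT reads against 0 in Spib_KO, at least 6.99-fold lower, and was below the level filter. The 2 subunits of this receptor thus had their higher counts in different libraries.

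Promoter letters of the other called genes are shown for the interferon-gamma activated site (GAS), searched as TTCNNNGAA. It was in 8.59% of all windows and in 15 of 68 member windows (22.1%), which is no test either, since the members were chosen by name. Tlr1 has 2 start sites in the table and Isg20 has 3, and in each gene the window of 1 start held a match. Tlr1 and Isg20, with log2 ratios of 3.10 and -2.18, both have one. The Tlr1 stretch lies at chr5:64932909-64932937 on the minus strand and the Isg20 stretch at chr7:78913341-78913369 on the plus strand, with the match in capitals. The Irf5 window held none of the 3 motifs.
Tlr1: agtagctagcTTCATCGAAgcagagatgc
Isg20: ctggggagggTTCTTGGAAtttttccttt

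Tlr7, a sensor of single-stranded RNA in endosomes, had 735 and 392 reads, or 40.8 and 22.8 CPM, with a log2 ratio of -0.84 (-1.02 to -0.66). Tlr3, the sensor of double-stranded RNA, had 378 and 351 reads, with a ratio of -0.04 (-0.25 to 0.18). Tlr4, the lipopolysaccharide receptor, had 10 WT reads against 0 in Spib_KO, at least 3.18-fold lower. Tlr5, Tlr8, Tlr9, Tlr11 and Tlr12 had at most 7 reads in either library. Summed over the 10 genes the level was 64.8 and 50.4 CPM, with a ratio of -0.36 (-0.49 to -0.23), and Tlr7 had the highest share of it in both libraries.

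Cytosolic RNA sensors had similar levels. Ddx58, which encodes RIG-I, had 66.1 CPM in WT against 83.6 in Spib_KO, with a log2 ratio of 0.34 (0.23 to 0.45). Ifih1, which encodes MDA5, had 60.2 and 69.7 CPM, with a ratio of 0.21 (0.09 to 0.33). Both windows hold an ISRE core just after the start site.

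Among NLR genes, Nlrp6 stood out by level. Nlrp6 encodes an inflammasome and RNA-sensing protein of the gut epithelium, and had 4069 and 3330 reads, or 226 and 194 CPM, with a log2 ratio of -0.22 (-0.29 to -0.15). It held most of the 246 and 208 CPM summed over the 17 Nlrp genes. Nlrp1b, a sensor of bacterial proteases, had 202 and 149 reads, with a ratio of -0.37, and Nlrp9b, known from intestinal rotavirus sensing, had 91 and 54 reads, with a ratio of -0.68 (-1.20 to -0.18). The other 14 Nlrp genes had at most 20 reads in either library. Nlrx1, a mitochondrial NLR, had 261 and 230 reads, with a ratio of -0.11. The peptidoglycan sensors were below the filter, with 72 and 47 reads for Nod1 and 13 and 7 reads for Nod2.

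Genes of the HIN-200 family, whose proteins bind DNA, were all below the level filter. The 6 Ifi2xx genes on chromosome 1 together had 76 WT reads against 9 in Spib_KO, or 4.22 and 0.52 CPM, with a log2 ratio of -2.94 (-4.19 to -2.01). Ifi206 had 25 and 1 reads, with a ratio of -4.03 (-9.93 to -1.96), Ifi213 had 17 and 4, Ifi208 had 17 and 3 (ratio -2.26, interval -4.85 to -0.64), and Ifi203 had 11 and 1 (ratio -2.88, interval -8.82 to -0.61). Aim2, the DNA sensor of the same family, had 6 and 15 reads, with a ratio of 1.32 (-0.06 to 3.04). The windows of 5 of the 6 Ifi2xx genes, all but Ifi209, hold an ISRE core, shown for 3 genes with the same 10 core bases at chr1:173491339-173491368, chr1:173673597-173673626 and chr1:173942508-173942537.
Ifi206: tgtctctgagGAAATCGAAAgctatgaacc
Ifi208: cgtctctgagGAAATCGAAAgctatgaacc
Ifi203: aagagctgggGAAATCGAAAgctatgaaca

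**Figure D4:**
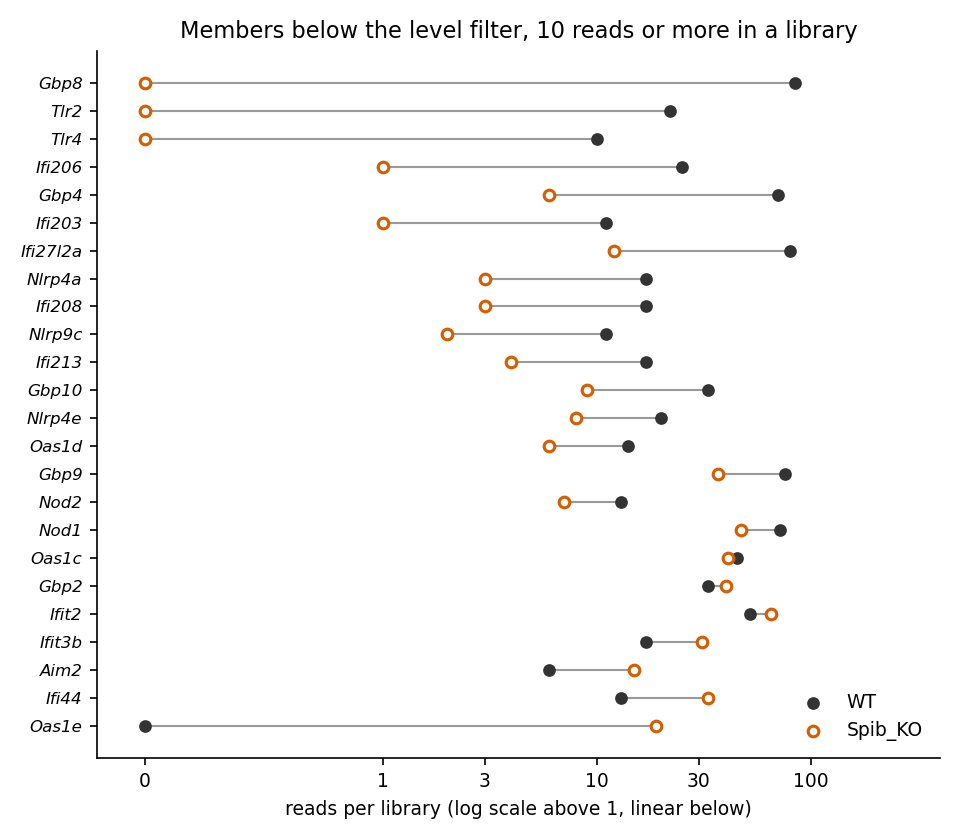
Reads per library (x axis, log scale above 1 and linear below) for the 24 members below the level filter with 10 reads or more in a library. Filled points are WT, open points Spib_KO. Gbp8, Tlr2 and Tlr4 reach 0 reads in Spib_KO, and Oas1e is at 0 in WT.

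Of the 43 members below the filter, 27 (62.8%) had a higher CPM in WT, against 54.4% of the 6427 genes of the table below it. Together they held 43.5 CPM in WT against 24.4 in Spib_KO. With no level filter beyond 1 read, 3 members were called higher (Ifit1, Tlr1 and Oas1e), and 3.48% of all 17113 genes were. In the other direction 8 were called lower, which is 9.41%, against 4.18% of all genes: Irf5, Isg20, Gbp4, Gbp8, Ifi206, Ifi27l2a, Tlr2 and Tlr4.

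T cell and intraepithelial lymphocyte markers were also lower in Spib_KO, with 4 of 4 measured markers called. The 10 T cell and intraepithelial lymphocyte markers with a row summed to 56.01 CPM in WT against 5.83 in Spib_KO, all 10 had a lower CPM there, and Cd3d had 20 WT reads against 0 in Spib_KO. The 8 myeloid markers summed to 30.8 and 21.4 CPM, 7 of the 8 were lower, Csf1r, Flt3 and Tyrobp had 0 reads in Spib_KO, and Adgre1 had 7.50 and 13.4 CPM. The 6 B cell and plasma cell markers, none of them measured, summed to 6.28 and 4.55 CPM, and 5 of the 6 were lower. Cd79a had 0 reads in Spib_KO, while Pax5 had 8 WT reads against 37 in Spib_KO, with a log2 ratio of 2.21. The part of these cells in the lower counts of Irf5, Isg20, Ifi27l2a, Gbp and Ifi2xx genes was not tested. The 6 Paneth cell markers summed to 2421 CPM in WT against 975 in Spib_KO, with 5 of the 6 called lower. The 6 goblet cell markers summed to 2105 and 1321 CPM, with 5 of the 6 lower, and Clca1 had 269 and 431 CPM. The 7 enteroendocrine markers summed to 129 and 41.6 CPM, with 6 of the 7 lower. The 1 that rose, Gip, was called higher, from 41 to 144 reads. The 7 enterocyte markers summed to 12719 and 15067 CPM, but 4 of the 7 were lower and their median log2 ratio was -0.35. Fabp1, the most abundant of these 7, had 6968 and 10611 CPM. The part of these epithelial types in the results was not tested either.

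The pathway around these genes was read from lists chosen for their roles. Of the 2 interferon genes with a row, Ifnl2, a type III interferon, had 11 and 2 reads and Ifnz had 8 and 12 reads, and neither was measured. Of 19 measured genes for interferon receptors and their signalling, 0 were higher and 2 lower, with a median log2 ratio of -0.10. The lower genes were Ptpn6, a tyrosine phosphatase, with a ratio of -1.19 (-1.22 to -1.17), and Socs3, a cytokine-induced inhibitor, with a ratio of -2.17 (-2.56 to -1.81). The receptor genes Ifnar1, Ifnar2, Ifngr1, Ifngr2, Ifnlr1 and Il10rb had ratios of 0.21, 0.30, -0.14, -0.10, -0.19 and -0.18. Stat2, a signal carrier of type I and type III interferons, had 183 and 224 CPM, with a ratio of 0.29.

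None of 21 measured adaptors and kinases of nucleic acid sensing was called, with a median of 0.02. In this list and those that follow, the 3 genes with the highest CPM averaged over both libraries are given. Trim25, a ubiquitin ligase that activates RIG-I, had a ratio of 0.10, and Zc3hav1 and Adar, which act on viral and double-stranded RNA, 0.37 and -0.22. The DNA sensor gene Cgas had 8.28 and 3.15 CPM, with a ratio of -1.39 (-1.87 to -0.94), short of the rule. Of 29 measured Toll-like receptor adaptors and kinases 1 was higher, Tab3, a partner of the kinase TAK1, from 32 to 93 reads with a ratio of 1.59 (1.01 to 2.24). The median was 0.01, and Hsp90b1, Nfkbia and Peli1, highest by that average, had ratios of -0.37, 0.03 and 0.18. Of 22 measured inflammasome and NLR partners 1 was lower. It was Il18, an epithelial cytokine released by inflammasomes, which fell from 57.1 to 21.9 CPM with a ratio of -1.38 (-1.56 to -1.21). Pycard, Naip5 and Ripk3, highest by that average, had ratios of -0.07, 0.31 and 0.43, and the list median was 0.07.

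None of the 58 measured further interferon-induced genes was called, and their median was 0.05, with 47 of them (81.0%) within 1.5-fold. Lgals9, Lgals3bp and Psmb10, highest by that average, had ratios of -0.12, 0.11 and -0.11. The genes furthest from 0, named after their values were seen, were Irgm2, Apol9b, Samd9l and Parp12 above, with ratios of 0.94, 0.91, 0.88 and 0.87, and the checkpoint ligand gene Cd274 below, with a ratio of -1.41 (-2.05 to -0.83). Of 7 measured factors of ETS and IRF pairing on a list that includes Spib, 1 was lower, Spib itself with a ratio of -6.95. Elf3, Jun and Junb, highest by that average, had ratios of -0.16, -0.29 and -0.08. Spi1, which encodes the related factor PU.1, had 18 and 1 reads and was not measured. Over the pathway lists together, 1 of 152 measured genes was higher and 4 were lower, Spib among them, and the median was 0.00. Over all measured genes the same rule called 2.33% higher and 2.18% lower.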

How the data were processed

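RNA of sorted tuft cells was amplified as cDNA by a SMART-seq type method and made into libraries with a transposase, per the labels' protocols. Neither molecular identifiers nor a strand-specific step are described. HISAT and Bowtie2 2.2.3 with build mm10 are named in the submitters' processing notes; the counting program is not given in the sources used here. The deposited tables give, per the file headers, counts beside FPKM and TPM for every gene. The counts the authors deposited behave as an expected count (estimated count), since 19.0% and 18.6% of genes have values that are not whole (tolerance 0.005), and they were rounded.

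Library sizes were scaled with TMM in edgeR 4.0.16 (R 4.3.3), giving effective totals of 17996059 and 17161039. Log2 ratios used a prior count of 0.5. Ratio intervals were exact binomial (Clopper-Pearson) and CPM intervals exact Poisson, at 95%. They cover counting error only, since there is 1 library per genotype, and amplified reads are not independent molecules. Folds against 0 reads used a floor of 3 counts. Scaling with DESeq2 1.42.0, total counts or the upper quartile, other filters and bounds, and deposited TPM and FPKM as log2(value + 1) were alternatives. The procedure was tested on simulated data, which cannot supply the variation between mice that 1 library per genotype leaves unmeasured. Every measured member was named or ranged; of other lists, called genes and the 3 with the highest mean CPM over both libraries. Other named genes (Cgas, receptor genes, Stat2, Stat3, Spi1), and the sums over Ifit1 with its copies and over Oas1, were chosen after values were seen. One measured member and one pathway gene are counted in the totals and not reported here. Members and lists were chosen with earlier results of these data known. Positions and promoters are from RefSeq, GRCm38.p6, the assembly mm10 stands for; all 85 members matched by gene identifier. Values were computed under Python 3.11.15 with scipy 1.17.1, numpy 2.4.6 and pandas 2.3.3, and drawn with matplotlib 3.10.9.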

Additional observations from a re-analysis of the deposited data

How the results depend on the processing

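No member's log2 ratio changed sign in the 252 values run for the 42 measured members under 3 other scalings, deposited TPM and FPKM, and a prior count of 5. Under DESeq2 size factors, total counts and the upper quartile the same 2 members were higher and the same 2 lower. TPM and FPKM also gave 2 and 2, but with Ifit3 in place of Tlr1 and Ifi27l2a in place of Irf5, whose values (1.58 and -1.35 with TPM, 1.42 and -1.26 with FPKM) were under their level filter of 5. With a CPM minimum of 20, 1 member was higher and 0 lower. With a 1.5-fold bound 4 were higher. Without members that overlap another gene 1 was higher and 1 lower, since Ifit1 and Irf5 leave by construction. With no filter 8 were lower and the member median was -0.11.

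For all genes, no filter gave 595 higher and 716 lower, a CPM minimum of 20 gave 101 and 106, the point estimate 425 and 419, a 1.5-fold bound 598 and 591, and FPKM 165 higher. For FPKM the cause was not tested; the other rules by construction admit more or fewer genes. For the pathway lists the higher count was 0 with TPM, FPKM or a CPM minimum of 20, 5 with no filter, 2 by the point estimate and 9 at 1.5-fold. Their lower count was 8 with no filter and 8 at 1.5-fold. Their median near 0 took the other sign with the upper quartile (0.0114), no filter (0.0031) and a CPM minimum of 20 (0.0124). Family sums from TPM and FPKM, which weigh genes by length and add 1, were -1.07 and -0.93 for Ifi2xx, 0.089 and 0.086 for Oas, and -0.22 and -0.22 for Tlr. No paired analysis was possible because each group has 1 library. Depth limits the rarer members: Ifi206, with 25 and 1 reads, had an interval from -9.93 to -1.96.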
